A study of Mus musculus with 16 samples.

Results

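A group of 9 genes of platelets and megakaryocytes was followed across mouse haematopoietic stem cells (HSC) of young and aged donors and across pluripotent cells: Vwf, Selp, Cavin2, Itgb3, Itga2b, Gp1bb, Gp9, Pf4 and Treml1. They were taken as every probe set annotated with exactly 1 of these symbols, which gave 15 of the 34945 probe sets with a single symbol and 9 of 18193 genes. Selp and Cavin2 had 3 probe sets each, Itgb3 and Gp1bb had 2 each and the other genes had 1. A further probe set annotated with both Septin5 and Gp1bb was left out.

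The study measured gene expression on 16 Affymetrix arrays, 1 for each sample, from cRNA of 10000 cells. Young and aged HSC were compared at steady state and after transplantation, and pluripotent cells induced from young or aged blood cells (iPSC) were set beside embryonic stem cells (ESC). All groups were C57Bl6 wild type. Young steady-state HSC came from the bone marrow of male mice aged 3 to 4 months (n = 3) and aged steady-state HSC from males aged 21 to 24 months (n = 3). Young and aged transplanted HSC (n = 2 each) were sorted from the marrow of recipients that had been given young or aged bone marrow, with no age stated, so that the sorted cells had passed through a host. The sources used here do not give that host's age or treatment. The 2 young-origin iPSC, the 2 aged-origin iPSC and the 2 commercial ESC cultures (from Open Biosystems and Primogenix) were grown on mouse embryonic feeder cells. The labels call the HSC and iPSC samples biological replicates without saying whether each is a separate animal, pool or clone, so each p-value reflects only how far such samples spread, which may be technical.

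HSC and megakaryocytes share part of their gene programme, and a part of the HSC pool carries transcripts best known from platelets. Platelets are shed by megakaryocytes and carry alpha granules, which hold von Willebrand factor, P-selectin and chemokines. Their surface carries the glycoprotein Ib-IX-V complex, which binds von Willebrand factor, and the fibrinogen receptor, an integrin made of the Itga2b and Itgb3 chains. Endothelial cells also make von Willebrand factor and P-selectin, and higher levels of several of these genes in HSC are a known feature of mouse ageing.

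Upstream sequences are shown for Selp and Cavin2, which rose with age, and for Itga2b and Gp9, classic genes of the lineage that did not pass the test. They are the 250 bases before the start that RefSeq's promoter table gives for each gene on GRCm38.p6 (for Gp9 this start lies inside the gene's annotated span), written 5′ to 3′ on the gene's own strand. Matches to a pair of short strings are in capitals. These are the string of the GATA factors, GATAA, and the string of the ETS factors, AGGAAG, each searched on both strands (a match on the opposite strand is printed as its reverse complement). They lie at chr1:164115014-164115263 (plus strand) for Selp, chr1:51288876-51289125 (plus) for Cavin2, chr11:102469884-102470133 (minus) for Itga2b and chr6:87777820-87778069 (plus) for Gp9.
Selp: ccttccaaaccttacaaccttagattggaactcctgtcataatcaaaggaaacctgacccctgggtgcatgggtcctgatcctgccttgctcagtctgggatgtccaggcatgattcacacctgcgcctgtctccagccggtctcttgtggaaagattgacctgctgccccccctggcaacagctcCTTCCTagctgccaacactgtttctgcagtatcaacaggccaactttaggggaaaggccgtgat
Cavin2: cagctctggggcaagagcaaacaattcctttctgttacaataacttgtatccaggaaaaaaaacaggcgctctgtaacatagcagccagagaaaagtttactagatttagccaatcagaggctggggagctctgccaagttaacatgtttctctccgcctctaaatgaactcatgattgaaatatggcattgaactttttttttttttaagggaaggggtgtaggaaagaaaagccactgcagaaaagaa
Itga2b: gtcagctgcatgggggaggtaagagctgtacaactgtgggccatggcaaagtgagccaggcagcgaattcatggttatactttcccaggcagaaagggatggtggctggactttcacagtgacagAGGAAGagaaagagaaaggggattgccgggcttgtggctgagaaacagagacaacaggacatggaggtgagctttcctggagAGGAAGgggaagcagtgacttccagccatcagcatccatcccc
Gp9: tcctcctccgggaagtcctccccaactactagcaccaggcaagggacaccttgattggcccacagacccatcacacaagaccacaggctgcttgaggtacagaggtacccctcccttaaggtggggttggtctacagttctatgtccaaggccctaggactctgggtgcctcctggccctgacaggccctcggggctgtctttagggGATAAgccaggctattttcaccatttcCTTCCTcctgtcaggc
RefSeq promoters were matched for 7 of the 9 genes. AGGAAG was found in 4 of the 7 (Selp, Itga2b, Gp9 and Pf4) and in 29.5% of all 32851 promoters of the same length. GATAA was found in 1 of the 7, Gp9, and in 22.6% of all promoters. In Itga2b AGGAAG occurred at 2 places, and in Gp9 both strings lay close to the start. The matches describe these letters only.

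Values are given as log2 of the deposited intensity. Where a gene had several probe sets, the one with the highest mean was used for the gene and the others are reported beside it. Levels of different genes rest on different probes and were not set against each other. The array medians lay between 43.4 and 51.8 intensity units. The mean log2 level of 10 measured HSC markers lay between 10.98 and 11.26 on the steady-state HSC arrays, between 8.96 and 9.55 on the transplanted arrays and between 5.28 and 5.37 on the cultured arrays. In bulk samples, fewer cells of a type and less RNA per cell cannot be told apart, and this holds for each difference below.

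At steady state, 4 of the 9 genes rose with age: Selp 10.2-fold, Cavin2 4.38-fold, Vwf 4.28-fold and Itgb3 2.93-fold. These encode P-selectin, a caveolar coat protein, von Willebrand factor and the beta chain of the fibrinogen receptor. No member fell by the test, which was limma over 13645 genes with Benjamini-Hochberg adjustment and a call at an adjusted p under 0.05. Among all genes tested, 0.96% were called higher and 0.22% lower. The median difference over the 9 genes was 0.40 and over all genes -0.02 (log2). The members were chosen with earlier results of these data known, so an excess over all genes, here or below, is not an independent test. All 9 genes passed the filter on dim genes, which removed genes under the 25th percentile of mean level.

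Vwf is the secreted ligand of the group, the protein that tethers platelets to injured vessel walls. Its log2 level was 9.54, 10.15 and 9.71 on the young steady-state arrays and 11.67, 11.97 and 12.05 on the aged arrays. Every aged array was above every young one. The aged mean was higher by 2.10 (SE 0.25, limma adjusted p = 0.00247).

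Selp, the granule receptor that moves to the surface of activated platelets and endothelium and binds leukocytes, showed the widest separation. Its log2 level was 7.90, 8.23 and 7.94 in young steady-state HSC and 11.48, 11.19 and 11.43 in aged steady-state HSC. The gap between the highest young and the lowest aged array was wider than the range within either group. The difference was 3.34 (SE 0.21, limma adjusted p = 4.13e-05). The other Selp probe sets gave the same picture: 1440173_x_at went from 6.66 to 7.22 in young to 10.06 to 10.25 in aged arrays, and 1449906_at from 6.20 to 6.70 to 9.18 to 9.53. Their differences were 3.21 and 2.89, and both passed the test over all 26209 probe sets.

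Cavin2, a protein of the membrane pits called caveolae that is abundant in platelets, read 9.60, 9.28 and 9.34 in young and 11.77, 11.47 and 11.38 in aged steady-state HSC (log2). The groups did not overlap. The difference was 2.13 (SE 0.18, limma adjusted p = 0.000356), and its other probe sets differed by 1.95 (1416779_at) and 1.81 (1443832_s_at), also past the threshold.

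Itgb3 read 9.50, 9.69 and 10.22 in young and 11.15, 11.51 and 11.40 in aged steady-state HSC (log2), again without overlap. The difference was 1.55 (SE 0.29, limma adjusted p = 0.0319). This call was less secure than the other 3. It was lost when any 1 of the 6 steady-state arrays was left out (log2 1.40 to 1.76, adjusted p 0.0511 to 0.169). Averaging its probe sets gave 0.86 (adjusted p = 0.0868), since the dim probe set 1421511_at differed by 0.18 only.

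In the probe set test, 8 of the 15 probe sets were called higher in aged steady-state HSC, against 0.626% of all probe sets. They were the 3 of Selp, the 3 of Cavin2, 1 of the 2 of Itgb3 and the 1 of Vwf. Probe sets of 1 gene measure the same RNA and are not separate evidence.

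**Figure D1:**
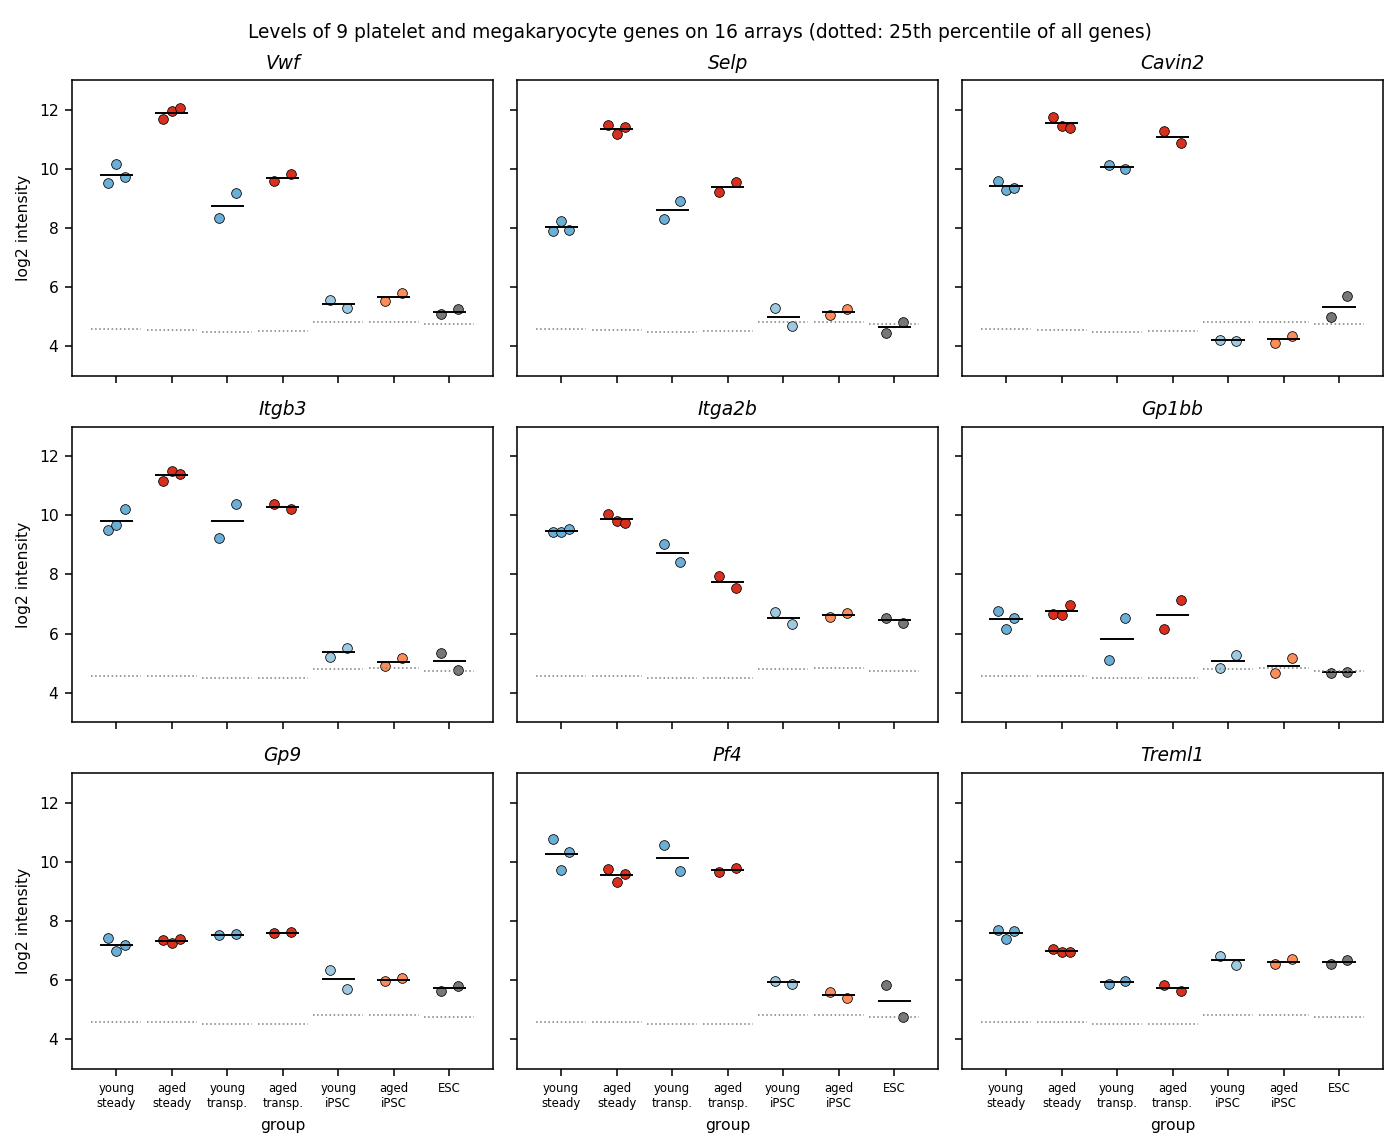
Log2 intensity of the 9 genes on 16 arrays, by group; points are arrays, bars group means, dotted lines the 25th percentile of all genes in that group. Vwf, Selp, Cavin2 and Itgb3 are highest in aged steady-state HSC, and all 9 genes are lower in iPSC than in steady-state HSC.

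The other chain of the fibrinogen receptor, Itga2b, did not pass. It read 9.44, 9.42 and 9.53 in young and 10.03, 9.82 and 9.74 in aged steady-state HSC (log2). The aged arrays were all above the young ones, but the difference was 0.40 (95% confidence interval -0.05 to 0.85, limma adjusted p = 0.948). Without overlap and upward were thus 5 members, against 8.84% of all genes, and without overlap and downward was 1 member, Treml1, against 9.35%.

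The members that encode subunits of the receptor for von Willebrand factor, Gp1bb and Gp9, did not pass either. Another subunit gene, Gp1ba, was not measured. Gp1bb read 6.76, 6.16 and 6.51 in young and 6.65, 6.64 and 6.95 in aged steady-state HSC, a difference of 0.27 (95% confidence interval -0.54 to 1.08). Its second probe set, 1456427_at, differed by -0.04. Gp9 read 7.41, 6.98 and 7.19 in young and 7.36, 7.24 and 7.37 in aged cells, a difference of 0.13 (-0.22 to 0.49). In both genes the young and aged arrays overlapped.

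The remaining alpha-granule genes had negative values. Pf4, a platelet chemokine, read 10.78, 9.71 and 10.32 in young and 9.75, 9.33 and 9.59 in aged steady-state HSC, a difference of -0.71 (SE 0.30, limma adjusted p = 0.719). Its groups overlapped in a single young array. Treml1, a granule receptor of the TREM family, read 7.69, 7.39 and 7.65 in young and 7.04, 6.94 and 6.94 in aged cells. Its groups did not overlap, and the difference was -0.60 (SE 0.16, limma adjusted p = 0.165). Fitting the steady-state arrays alone gave the same difference for Treml1 with an adjusted p of 0.0407, fitting all 16 arrays together gave 0.0454 and array weights gave 0.0104, with 415, 280 and 613 of all genes called in these fits.

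After transplantation none of the 9 genes passed the test, while 1.35% of all genes did, 0.55% higher and 0.799% lower. Unadjusted p was under 0.05 for 4 of the 9 (Vwf, Selp, Cavin2 and Itga2b), against 15.2% of all genes. The members with positive values were Cavin2 (1.01), Vwf (0.94), Gp1bb (0.82), Selp (0.79), Itgb3 (0.49) and Gp9 (0.07), and those with negative values were Itga2b (-0.98), Pf4 (-0.41) and Treml1 (-0.19). Their median was 0.49, and that of all genes was -0.02. Each mean rests on 2 arrays.

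Vwf read 8.35 and 9.17 in young and 9.59 and 9.82 in aged transplanted HSC (log2), a difference of 0.94 (SE 0.30, limma adjusted p = 0.178). Selp read 8.30 and 8.93 in young and 9.24 and 9.56 in aged transplanted cells, a difference of 0.79 (SE 0.25, adjusted p = 0.18). Cavin2 read 10.15 and 9.99 in young and 11.27 and 10.89 in aged transplanted cells, a difference of 1.01 (SE 0.22, adjusted p = 0.0647). In all 3 genes the aged arrays lay above the young ones. Gp9 was also without overlap, at 7.51 and 7.55 against 7.57 and 7.63, which makes 4 such genes upward against 14.2% of all genes.

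The other probe sets of Selp and Cavin2 were less even after transplantation. Selp 1440173_x_at read 8.41 and 8.17 in young and 9.24 and 9.65 in aged transplanted HSC, a difference of 1.16 (limma adjusted p = 0.0613 over all probe sets). Selp 1449906_at read 8.46 and 8.34 against 8.49 and 9.42, a difference of 0.55 (0.452). Both kept the aged arrays above the young ones. Cavin2 1416779_at read 8.87 and 7.29 against 8.79 and 9.0, and 1443832_s_at read 7.59 and 6.82 against 7.55 and 8.53. In these 2 probe sets the groups overlapped, and young transplanted replicate 1 was the higher of the young arrays.

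Itga2b read 9.04 and 8.41 in young and 7.96 and 7.53 in aged transplanted HSC. The aged arrays were the lower ones, opposite to the order at steady state, with a difference of -0.98 (SE 0.25, limma adjusted p = 0.0951). Treml1 read 5.87 and 5.97 against 5.84 and 5.61, the only other member without overlap downward (17.5% of all genes). Itgb3 read 9.23 and 10.37 in young and 10.39 and 10.20 in aged transplanted HSC, and these overlapped. Gp1bb (5.12 and 6.53 against 6.15 and 7.14) and Pf4 (10.57 and 9.68 against 9.66 and 9.77) overlapped as well.

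The members that passed changed with the young transplanted array that was left out. Without young transplanted replicate 2, 5 genes passed with limma: Vwf (1.35, adjusted p = 0.0176), Selp (1.10, 0.0213), Cavin2 (0.93, 0.0491), Gp1bb (1.53, 0.0356) and, downward, Itga2b (-1.29, 0.0101). Without young transplanted replicate 1, Cavin2 alone passed (1.09, adjusted p = 0.034), and Itgb3 and Pf4 had values of the opposite sign (-0.07 and 0.04). The calls over all genes moved as well, from 184 (1.35%) to 1467 (10.8%) without replicate 2 and to 1139 (8.35%) without replicate 1. These refits take the lone young array to vary like the other groups. The SD between the 2 young transplanted arrays was 0.58 in Vwf, 0.80 in Itgb3 and 1.00 in Gp1bb. In Cavin2 it was 0.11 on the brightest probe set, 1.12 on 1416779_at and 0.55 on 1443832_s_at.

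**Figure D2:**
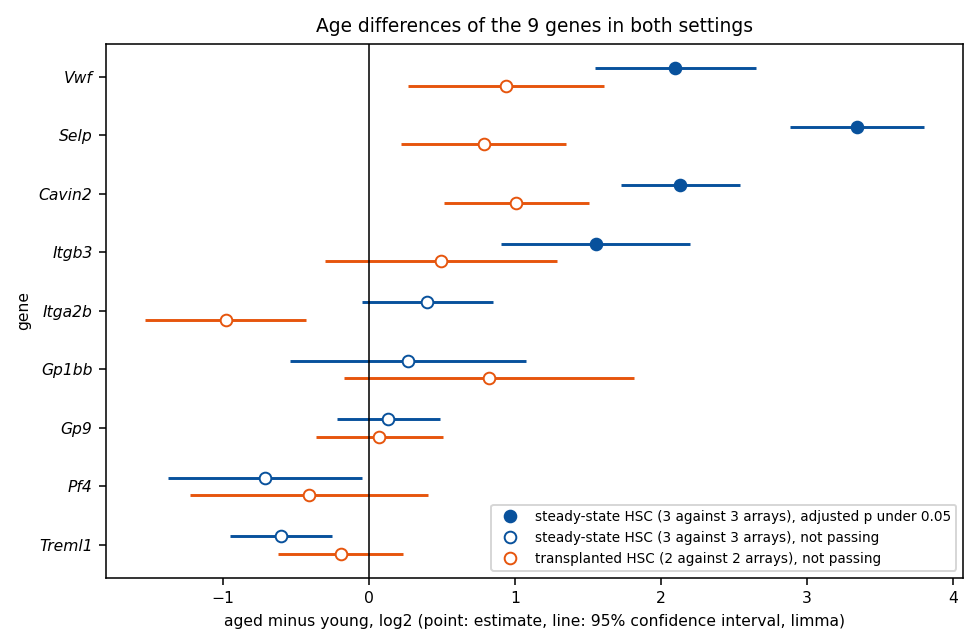
Aged minus young difference (log2) of each gene at steady state (blue, 3 against 3 arrays) and after transplantation (orange, 2 against 2); lines are 95% confidence intervals from limma and filled points passed at an adjusted p under 0.05. The 4 filled points are Selp, Cavin2, Vwf and Itgb3 at steady state, and Itga2b has a positive value at steady state and a negative one after transplantation.

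The equally weighted mean of both settings, with 5 aged and 5 young arrays, passed for Selp (2.06, SE 0.16, limma adjusted p = 0.000236), Cavin2 (1.57, SE 0.15, 0.000695) and Vwf (1.52, SE 0.20, 0.00431), against 1.11% of all genes called higher. Itgb3 missed the threshold at 1.02 (SE 0.23, adjusted p = 0.0583). It passed in the refits without either young transplanted array (0.0414 without replicate 1, 0.00351 without replicate 2). Without replicate 2 Gp1bb also passed, at 0.90 (adjusted p = 0.0448), which raised the count to 5. Over all genes the calls went from 249 to 932 without replicate 1 and to 1191 without replicate 2. Itgb3 also passed with quantile normalisation (0.0391), with the arrays centred on their median (0.0493) and with all 16 arrays in 1 fit (0.0136).

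A direct test of the difference between the settings passed for 1 member, Selp, against 0.125% of all genes called and 0.0879% called lower. Its age difference after transplantation minus that at steady state was -2.56 (log2, SE 0.33, limma adjusted p = 0.0229). Selp was higher in young transplanted than in young steady-state HSC and lower in aged transplanted than in aged steady-state HSC on this probe set, with no overlap between any of these groups. The call held when any 1 transplanted array was left out and was lost when any 1 of the 6 steady-state arrays was left out (-2.49 to -2.66, adjusted p 0.0755 to 0.0962). Over all genes, 17 were called with every array, 14 to 723 without a transplanted array and 1 to 6 without a steady-state array. The Selp call was also lost with the replicate number as a block (limma adjusted p = 0.0907) and with array weights (0.172). With array weights, 0 of all genes were called. The other Selp probe sets differed by -2.05 (adjusted p = 0.0605) and -2.34 (0.0805) in the probe set test.

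For the other members the difference between the settings did not pass. It was -1.38 for Itga2b (95% confidence interval -2.09 to -0.67, limma adjusted p = 0.146), -1.16 for Vwf (-2.02 to -0.29, 0.353), -1.12 for Cavin2 (-1.76 to -0.48, 0.188) and -1.06 for Itgb3 (-2.08 to -0.03, 0.496). Without young transplanted replicate 2 Itga2b passed as well (-1.69, adjusted p = 0.0126), and without replicate 1 Vwf did (-1.57, 0.0471), where 723 and 342 of all genes were called. Gp1bb, Gp9, Pf4 and Treml1 had differences between -0.06 and 0.55.

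**Figure D3:**
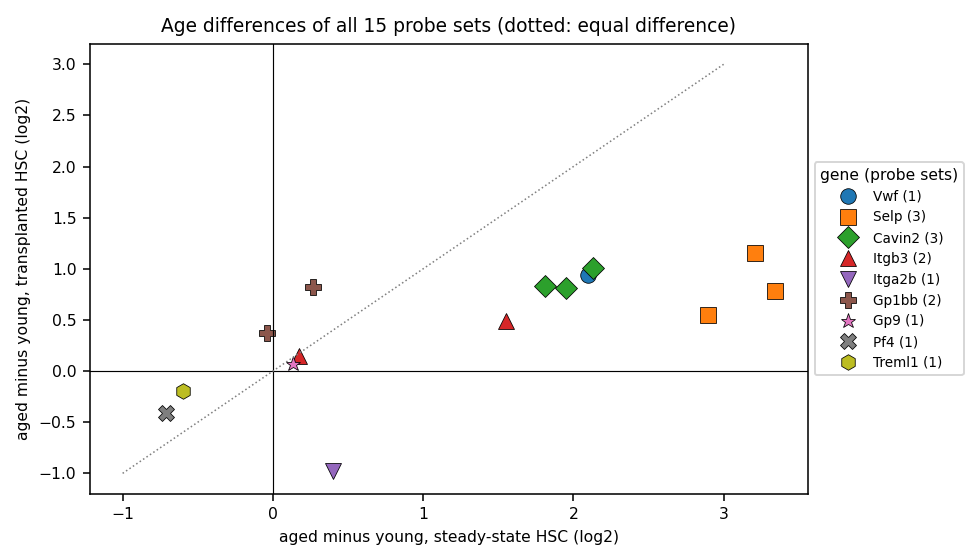
Age difference (aged minus young, log2) of the 15 probe sets at steady state (horizontal) and after transplantation (vertical); each symbol is a probe set, coloured by gene, and the dotted line marks equal differences. The 3 Selp probe sets lie between 2.89 and 3.34 at steady state and between 0.55 and 1.16 after transplantation, and the 3 of Cavin2 between 1.81 and 2.13 and between 0.82 and 1.01.

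Transplanted and steady-state HSC differed in most genes: 69.9% of all genes were called, 50.1% lower and 19.8% higher in transplanted cells, with a median of -0.46 (log2). Host, setting and sample preparation cannot be told apart here. Of the members, Vwf (-1.62), Treml1 (-1.45), Itga2b (-1.43) and Selp (-0.69) were called lower and Gp9 (0.31) higher. Relative to the median of all genes, Vwf, Treml1, Itga2b and, by a smaller margin, Selp remained below it, while Cavin2 (0.10), Pf4 (0.01), Gp1bb (-0.38) and Gp9 lay above it and Itgb3 (-0.53) just under it. With the arrays centred on their median or quantile normalised, Cavin2 was called higher (0.53 and 0.55) and Selp was not called (-0.26 and -0.11), so the split became 2 higher and 3 lower.

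The order of the groups differed between members in this comparison. Treml1 was lower in every transplanted array (5.61 to 5.97) than in every steady-state array (6.94 to 7.69) and lower in transplanted HSC than on the arrays of cultured cells (6.51 to 6.82). Itga2b was also without overlap, at 7.53 to 9.04 in transplanted and 9.42 to 10.03 in steady-state HSC. Without overlap downward were 2 members against 40.2% of all genes. Gp9 was the reverse, at 7.51 to 7.63 against 6.98 to 7.41 (14.6% of all genes), but its call (limma adjusted p = 0.049) was lost when any array other than young steady-state replicate 1 was left out. The call counts for the members were 4 to 6 over these refits, with 6 without young transplanted replicate 2, where Itgb3 (-0.81) and Gp1bb (-0.73) were called lower and Gp9 was not called. The probe sets disagreed for Selp (-0.69, 0.31 and 0.78), Itgb3 (-0.53 and 0.59) and Gp1bb (-0.38 and 1.15), so the direction of these 3 genes in this comparison depends on the probe set read. For Cavin2 the probe set 1416779_at was called higher (1.03), and the others were not (0.10 and 0.24).

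All 9 genes were lower in iPSC than in steady-state HSC (34.7% of all genes were called lower), in a limma fit of all 16 arrays. The fall was 6.26 for Cavin2 (log2 -6.26), 5.37 for Itgb3 (-5.37), 5.30 for Vwf (-5.30), 4.61 for Selp (-4.61) and 4.20 for Pf4 (-4.20). Itga2b (-3.09), Gp1bb (-1.62), Gp9 (-1.24) and Treml1 (-0.63) fell less. The order of these sizes depends on the probe set: the other probe sets gave -3.64 (1416779_at) and -2.32 (1443832_s_at) for Cavin2 and -5.25 (1440173_x_at) and -3.61 (1449906_at) for Selp. In each gene every iPSC array was below every steady-state HSC array, which was so for 33.7% of all genes. Of the 15 probe sets 13 were called lower, against 32.2% of all probe sets; the exceptions were 1421511_at of Itgb3 (-0.27) and 1456427_at of Gp1bb (0.14), both low on the HSC arrays too.

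In the pluripotent cells several members were near the bottom of the scale. Cavin2 lay in the lowest 25% of all genes in both iPSC groups, at 4.12 to 4.35, and Selp and Gp1bb were under it in ESC. No member was under it in any HSC group. The files used here carry no detection calls, so whether a low level differs from background was not tested.

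The age of the iPSC's origin was not called for any of the 8 members tested (Cavin2 was under the dim filter), and 1 gene of all tested was called (0.00733%). With limma, 4.98% of all genes and none of the members had an unadjusted p under 0.05. Vwf read 5.57 and 5.29 in young-origin and 5.53 and 5.81 in aged-origin iPSC, a difference of 0.24 (95% confidence interval -0.11 to 0.59). Selp read 5.29 and 4.70 against 5.06 and 5.28, a difference of 0.17 (-0.29 to 0.63). Itgb3 read 5.21 and 5.52 against 4.91 and 5.18, a difference of -0.32 (-0.78 to 0.13). Itgb3 and Pf4 (5.97 and 5.87 against 5.60 and 5.40) were lower in aged-origin iPSC without overlap, against 21.5% of all genes, and on the probe sets with the highest mean no member was higher without overlap. The second Gp1bb probe set, 1456427_at, was higher without overlap (0.44, limma adjusted p = 0.989 over all probe sets), opposite in sign to the first. The remaining values lay between -0.15 for Gp1bb and 0.10 for Itga2b. The upper ends of these intervals lay below the steady-state HSC differences of 2.10, 3.34 and 1.55 for the same genes, but those come from another fit and the 2 differences were not tested against each other.

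Against ESC, the iPSC did not differ by the test in any of the 8 members tested (0.11% of all genes called). The values were between 0.03 for Treml1 and 0.43 for Selp. Vwf, at 0.38 (95% confidence interval 0.08 to 0.68, limma adjusted p = 0.31), was the only one of these 8 without overlap between iPSC and ESC arrays, against 9.75% of all genes in that direction. The ESC arrays read 5.09 and 5.25 for Vwf, 4.47 and 4.83 for Selp, 5.35 and 4.78 for Itgb3 and 5.84 and 4.76 for Pf4. Cavin2, under the dim filter by gene, read 4.98 and 5.69 in ESC, above all 4 iPSC arrays. In the test over all probe sets this probe set, 1416778_at, had a difference of -1.12 (SE 0.19, limma adjusted p = 0.0935) and 1443832_s_at one of -0.75 (0.267), both without overlap and neither past the threshold. Unadjusted p was under 0.05 for Vwf and Selp, against 12.7% of all genes.

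Ordered by mean level, aged steady-state HSC were first for Vwf, Selp, Cavin2, Itgb3, Itga2b and Gp1bb, young steady-state HSC for Pf4 and Treml1 and aged transplanted HSC for Gp9. In Selp the order was aged steady-state (11.37), aged transplanted (9.40), young transplanted (8.62) and young steady-state HSC (8.02), with no overlap between neighbours, and then aged-origin iPSC (5.17), young-origin iPSC (5.0) and ESC (4.65), which overlapped. On its brightest probe set Cavin2 had the same order of the 4 HSC groups (11.54, 11.08, 10.07 and 9.41) without overlap. Its probe set 1416779_at put aged transplanted (8.90) before aged steady-state HSC (8.44), and on that one and on 1443832_s_at neighbouring HSC groups overlapped, as aged steady-state and aged transplanted HSC did on Selp 1449906_at. In Vwf the order was aged steady-state (11.90), young steady-state (9.80), aged transplanted (9.71) and young transplanted HSC (8.76), and the second and the third of these overlapped. In Gp1bb each group overlapped the next throughout.

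The other genes of the pathway were read from 9 lists of adhesion receptors, agonist receptors, granule contents, granule machinery, signalling proteins, transcription factors, caveola genes, selectins and partners of the member integrins. Of 111 genes listed, 99 were measured and 85 tested. At steady state 2 rose with age and 1 fell, against 0.96% and 0.22% of all genes, and the other 82 did not pass. The median over the 85 was 0.05 against -0.02 for all genes. Of the 85, 50 had a value above 0, against 46% of all genes. Clu, a chaperone protein stored in alpha granules, rose from a mean of 8.03 to 10.92 (7.42-fold, SE 0.40 on the log2 scale, limma adjusted p = 0.00624). Itga6, the alpha chain of the laminin receptor, rose from 10.72 to 11.56 (1.79-fold, SE 0.17, 0.0497). Gata1, the transcription factor that drives megakaryocyte and erythroid genes, fell from 8.66 to 7.52 (a difference of -1.15, SE 0.22, 0.032). When any 1 steady-state array was left out, only Clu remained called. In a fit of the steady-state arrays alone, 7 of these genes were called. That fit called 3.04% of all genes, against 1.18% in the main fit.

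By list, 1 of 13 adhesion receptors tested (Itga6), 1 of 12 granule genes (Clu) and 1 of 16 transcription factors (Gata1, downward) passed. None of the 8 agonist receptors, 12 granule machinery genes, 16 signalling genes, 4 caveola genes, 1 selectin ligand gene and 4 integrin partners did. The list medians ran from -0.50 for the selectin list, which was Selplg alone, to 0.27 for the agonist receptors. Genes that missed the threshold included Plek, a protein kinase C substrate of platelets (1.55, adjusted p = 0.0807), Mylk (0.90, 0.132), Ptger4 (0.96, 0.182), Cd9 (0.65, 0.209), Mmrn1 (0.60, 0.219), Pdgfb (0.57, 0.193), F2rl3 (0.69, 0.271) and Clec1b (1.32, 0.368). The caveola genes had a median of 0.02, beside the 2.13 of Cavin2, and Cavin1 had 0.04.

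After transplantation none of the 85 genes rose and 5 fell: Timp3 (-1.62), Lat (-1.43), Mrtfa (-1.20), Esam (-1.12) and Cavin1 (-1.07), with limma adjusted p-values from 0.0292 to 0.0416, beside the 0.55% of all genes called higher and 0.799% called lower in this comparison. The median over the 85 genes was -0.06. Clu had 1.45 (SE 0.49, adjusted p = 0.201), Itga6 0.45 (0.344) and Gata1 -0.86 (0.161). These 5 calls depended on the arrays entered. None remained when any 1 steady-state array was left out, and the count was 9 without young transplanted replicate 1, 14 without young transplanted replicate 2 and 1 without aged transplanted replicate 2. The calls over all genes were 47 to 62, 1139, 1467 and 70 in these refits. With the arrays of this comparison alone, or with a replicate block, the count of these genes was 0. Over all genes, 0 and 27 were called in these fits.

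**Figure D4:**
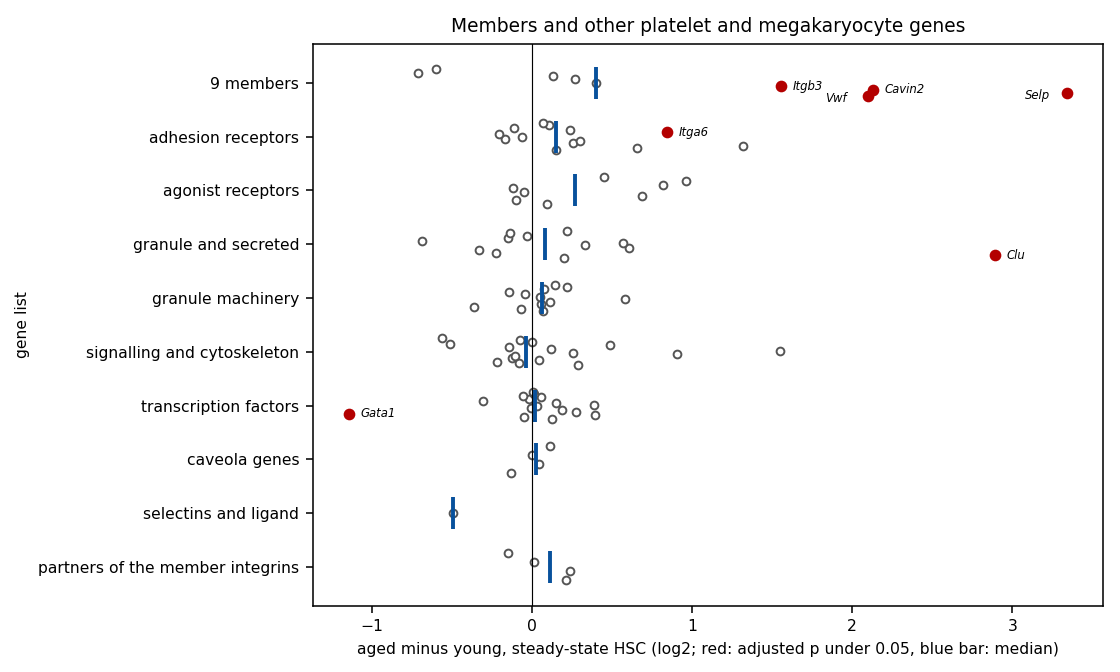
Aged minus young difference at steady state (log2) of the 9 members and of the other genes of 9 lists; points are genes, red points passed at an adjusted p under 0.05 in limma and blue bars are medians. Beside the 4 members, Itga6 and Clu rose and Gata1 fell.

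Markers of other cells were read beside these results. Of the 9 genes listed for mature megakaryocytes and platelets, 7 were measured (Gp5, Gp6, Ppbp, Clec1b, Tubb1, Rab27b and P2rx1) and none was called in either setting. Their summed level (log2) was 9.58 to 10.01 on the young and 9.64 to 9.95 on the aged steady-state arrays, and the median difference was -0.11. Gp6, the collagen receptor, was under the 25th percentile in all 4 HSC groups. Ppbp, an abundant platelet chemokine, had a mean of 6.50 in young and 5.82 in aged steady-state HSC. Of the 6 tested, 2 had values above 0 at steady state: Clec1b (4.26 to 5.57) and Rab27b (7.75 to 8.33).

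Of the 9 endothelial markers, 2 rose at steady state. Cldn5, a tight junction protein, rose from 6.15 to 8.76 (2.61, SE 0.25, limma adjusted p = 0.000699) and Kdr, a receptor for vascular growth factor, from 6.60 to 8.05 (1.45, SE 0.21, 0.00722). Their list's summed level was 10.00 to 10.17 on the young and 10.45 to 10.86 on the aged steady-state arrays. It was 9.77 to 9.84 on the young and 10.06 to 10.08 on the aged transplanted arrays, where none was called. Cdh5, the defining junction protein of endothelium, was under the 25th percentile in every HSC group (3.91 to 4.08). Tie1 (7.94 and 8.08), Egfl7 (8.84 and 8.63) and Pecam1 (5.91 and 5.98) had similar young and aged means and were not called. The part of Cldn5 and Kdr in the member results was not tested.

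Among markers of other blood cells, Cd48, a surface protein of progenitors outside the HSC gate, fell with age in both settings. Its mean went from 5.32 to 3.97 at steady state (-1.35, SE 0.21, limma adjusted p = 0.0133) and from 5.74 to 3.79 after transplantation (-1.95, SE 0.26, 0.0132), and the other 2 markers of its list were not called. Prtn3, a protease of neutrophil granules, rose at steady state (0.85, SE 0.16, 0.0312). After transplantation the erythroid anion exchanger Slc4a1 rose (2.26, SE 0.44, limma adjusted p = 0.041), and 2 of the 4 erythroid markers tested had values above 0. Csf1r, the receptor of a monocyte growth factor, fell (-3.61, SE 0.56, 0.0206). It ran against its list, where 7 of the 9 neutrophil and monocyte markers had values above 0 (median 0.42). Slc4a1 in young (3.41) and Csf1r in aged transplanted HSC (3.24) were under the 25th percentile of all genes. So was Cd48 in aged steady-state (3.97) and aged transplanted HSC (3.79), so the size of its fall is limited by the bottom of the scale. All 7 cell-cycle markers had values below 0 in both settings (medians -0.55 and -0.66), and none was called. No marker of B, T and NK, mast or fibroblast cells was called. The dim filter left few to test: 1 of 5 B cell, 5 of 6 T and NK cell, 2 of 4 mast cell and 4 of 8 fibroblast markers. The part of these markers in the member results was not tested.

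For each member the 3 most similar profiles over the 10 HSC arrays were found among 13645 genes, by the root mean square difference of log2 levels after centring each gene on its own mean. For Vwf they were Plcl1 (0.31), Gadd45g (0.35) and Jag1 (0.35), for Selp Trpc1 (0.42), Tc2n (0.46) and Tdrd9 (0.51), for Cavin2 Exoc3l4 (0.31), Aldh1a1 (0.34) and Abat (0.34), and for Itgb3 Thbd (0.30), Ptprk (0.32) and Nxpe2 (0.38). Aldh1a1 went from a mean of 9.89 to 11.86 at steady state and from 10.10 to 10.68 after transplantation. For Itga2b they were Pofut2 (0.17), Mmgt1 (0.20) and Dennd4c (0.21). The members were not each other's nearest genes: Vwf was 18th nearest to Selp (0.68), and Itgb3 was 38th and Selp 80th nearest to Cavin2. By place, other pairs came later. Vwf was 2204th nearest to Cavin2 (0.92), and Vwf was 557th (0.64) and Selp 3319th (0.76) nearest to Itgb3. Places do not follow distance across genes: Vwf and Itgb3 lay closer than Vwf and Selp. For Gp9 the nearest were Rpl35 (0.06), Rps9 (0.09) and Pgf (0.09), for Pf4 Tmcc2, Spi1 and Rasl11b, for Treml1 Pdcd2l, Ust and Akr1c13, and for Gp1bb Tmem203, Phyh and B930059L03Rik. A gene that varies little, such as Gp9 (SD 0.20 over the arrays), has many genes at a small distance.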

How the data were processed

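Gene expression was measured on 1 Affymetrix array for each of 16 samples in 7 groups, from total RNA and biotinylated cRNA, per the labels' protocols. The authors deposited 1 intensity per probe set on a linear scale (4.53 to 31493.3), and the summarisation, normalisation and background correction are not given in the sources used here. Of 45101 probe sets, 64 were controls, 34945 had 1 symbol, 932 several and 9160 were not listed in the annotation table. The deposited intensity was turned into log2 with no further scaling. The probe set with the highest mean stood for each gene, and genes under the 25th percentile of mean level were left out, which kept 13645 genes. Groups were fitted with limma 3.58.1 in R 4.3.3 (lmFit and eBayes), with Benjamini-Hochberg adjustment over all genes and a threshold of 0.05. Figures and tables used Python 3.11.15, pandas 2.3.3, numpy 2.4.6 and matplotlib 3.10.9. The 10 HSC arrays (6 residual degrees of freedom), the 6 cultured arrays (3) and, for iPSC against HSC, all 16 arrays (9) were fitted. The procedure was tested on simulated data. The number of arrays limits the precision.

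The members and gene lists were chosen with earlier results of these data known. All members were named, with genes of each list that passed in either HSC age comparison, up to 4 further genes of a list with the smallest p at steady state, and the 3 nearest profiles of each member. Listed genes that were not measured are not analysed here. Replicate numbers were not taken as pairs: deviations of same-numbered young and aged arrays correlated at 0.128, -0.159 and 0.161 at steady state, -0.148 after transplantation and -0.028 in iPSC. Alternatives were every probe set, averaged probe sets, quantile normalisation, median centring, no filter or a filter at the 50th percentile, a pseudocount of 64, a trended robust prior, all 16 arrays, the arrays of each comparison alone, array weights, a replicate block and leaving out each array. A block with crossed transplanted numbers was added after the data were seen.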

Additional observations from a re-analysis of the deposited data

Results flagged for a closer look

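The age difference of Selp passed a direct test between the 2 settings on the probe set with the highest mean: -2.56 (log2, transplanted minus steady-state, SE 0.33, limma adjusted p = 0.0229). Selp is singled out because a test of the difference between the settings itself passed, which was so for 17 of 13645 genes, and for 1 to 723 genes when 1 array was left out. The young transplanted mean was 8.62 and the aged transplanted mean 9.40, against 8.02 and 11.37 at steady state. The Selp call was lost when any 1 steady-state array was left out, with a replicate block and with array weights. Its other probe sets gave -2.05 (limma adjusted p = 0.0605) and -2.34 (0.0805), which did not pass.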

How the results depend on the processing

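The 4 genes that rose with age at steady state stayed called in every alternative that kept all steady-state arrays, except Itgb3 with the mean of its probe sets. The steady-state count of 4 became 5, with Treml1, in the fits of all 16 arrays, of the arrays of the comparison alone and with array weights. Over all genes, 280, 415 and 613 were called in these fits, against 161 in the main fit. The count of 3 for the mean of both settings became 4, with Itgb3, with quantile normalisation, median centring, all 16 arrays and the crossed block. With all 16 arrays, 695 of all genes were called for this mean, against 249 in the main fit. The transplanted age count of 0 became 1 with a pseudocount of 64 (Cavin2) and 2 with all 16 arrays in 1 fit (Cavin2 and Itga2b). Over all genes, 151 and 674 were called in these fits, against 184 in the main fit. The count of members whose age difference differed between settings, 1, became 2 with all 16 arrays (Selp and Itga2b), 0 with array weights, 0 with a replicate block and 0 with the crossed block. For this difference, 199 of all genes were called with all 16 arrays and 0 with array weights, against 17 in the main fit. With the block, 4 members were called at steady state and 0 after transplantation, beside 121 and 27 of all genes. The cause of these shifts was not tested. With 1 array left out, the counts of members called were 3 to 4 at steady state, 0 to 5 after transplantation, 3 to 5 for the mean, 0 to 2 for the difference, 4 to 6 for transplanted against steady state, 9 for iPSC against HSC and 0 in the iPSC comparisons.

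Signs that turned belonged to differences that were not called, except Selp. Between transplanted and steady-state HSC, the mean of probe sets gave 0.13 for Selp, 0.03 for Itgb3 and 0.38 for Gp1bb, and Gp1bb was 0.066 with quantile normalisation and 0.048 with median centring. The difference of age effects for Gp9 was 0.058 with quantile normalisation, and the iPSC age value of Gp1bb was 0.14 with the mean of probe sets. With 1 array left out, these ranges crossed 0: after transplantation Itgb3 -0.074 to 1.06 and Pf4 -0.86 to 0.039; in the difference Gp1bb -0.15 to 1.26, Gp9 -0.17 to 0.045 and Pf4 -0.14 to 0.75; between settings Pf4 -0.22 to 0.23. In iPSC by origin they were Selp -0.12 to 0.46, Itga2b -0.11 to 0.31, Gp1bb -0.41 to 0.11, Gp9 -0.32 to 0.30 and Treml1 -0.20 to 0.11, and against ESC Itgb3 -0.15 to 0.43, Pf4 -0.13 to 0.95 and Treml1 -0.049 to 0.10. The block could not be fitted for iPSC against ESC, since the ESC labels carry no number, and the arrays of the comparison alone are the same fit for the comparisons that use all HSC or all cultured arrays.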
